A study of Mus musculus with 6 samples.

Results

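The cyclin-dependent kinase (CDK) inhibitors and the core of the p53 pathway, genes used as transcript markers of cellular senescence, were examined in macrophages sorted from skin wounds of young and aged mice. The set was a list of 10 genes, comprising the CDK inhibitors Cdkn1a, Cdkn1b, Cdkn2a, Cdkn2b, Cdkn2c and Cdkn2d, the p53 gene Trp53 with Mdm2 and Ccng1, and the nuclear lamina gene Lmnb1. Each was found by its symbol in the table of deposited expected counts, in which 9 of the 10 had a row among 15168 genes, and 8 of the 9 passed the filter on low counts and were tested among 11878 genes. Cdkn2a was not analysed here, and Cdkn2b fell below the filter. The rule that finds the genes uses symbols and no measured value, although the list was drawn up with earlier results of these data known.

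All 6 samples came from female wild-type C57BL/6J mice that had received full-thickness excisional wounds on the back. Live CD45+ CD11b+ CD64+ F4/80+ cells were sorted at Day 3 after wounding, and their RNA was amplified and sequenced. The young group was 12 weeks old (3 samples) and the aged group 24 months old (3 samples), with no unwounded or other control group in the sequencing. Samples are named here by age and by the set letter of their label (A, B or C). Neither the labels nor the methods say whether a sample was 1 mouse or a pool, so p-values measure the spread between these samples, which may be technical. The sort did not exclude Ly6G+ cells.

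Cells enter senescence through a small number of brakes on the cell cycle. The Cip/Kip inhibitors p21 (Cdkn1a) and p27 (Cdkn1b) bind cyclin-CDK complexes, whereas the INK4 inhibitors (Cdkn2a to Cdkn2d) bind CDK4 and CDK6 and keep them from D-type cyclins. p53 induces p21 after DNA damage and is itself held down by the ubiquitin ligase Mdm2, which p53 also induces, and loss of lamin B1 (Lmnb1) is a common marker of senescent cells. In macrophages, p21 and p16 can also be induced by differentiation and activation signals, without senescence.

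Aged wound macrophages held more Mdm2 and more Lmnb1 than young ones, and no CDK inhibitor passed the edgeR test in either direction. Cdkn1a passed as higher under some of the other settings given with it. Cdkn2d passed as lower in edgeR without young A (adjusted p = 0.0449). Mdm2 was 1.76-fold higher by group means and Lmnb1 was 2.01-fold higher. Of the 8 genes tested, 2 rose and 0 fell at an adjusted p-value under 0.05 (quasi-likelihood test of edgeR, adjusted by Benjamini-Hochberg across every tested gene), where 9.73% of all genes rose and 7.97% fell. At an unadjusted p-value under 0.05, 3 of the 8 were higher and 1 was lower, where 2144 and 1957 of all 11878 genes were. Lmnb1 alone also exceeded a 2-fold change, as did 8.79% of all genes in either direction. The aged samples lay wholly above the young ones for Mdm2 and wholly below them for Cdkn2d, so 2 of the 8 did not overlap, where 38.2% of all genes did not. The median log2 fold change of the 8 genes was 0.19, against -0.02 over all genes tested. Both calls rested on few samples, and they are given below with the samples left out in turn.

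**Figure D1:**
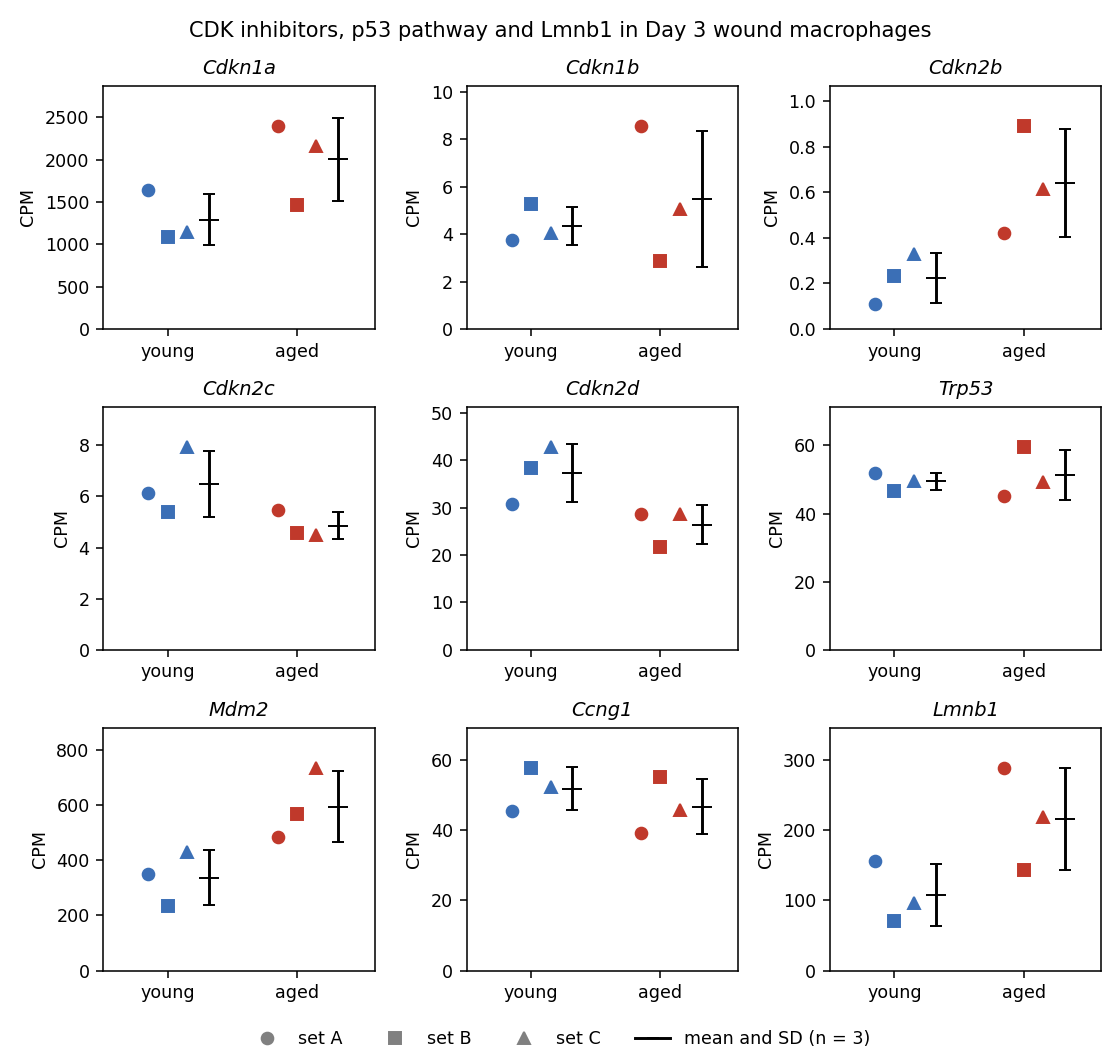
Level of the 9 measured genes in each of the 6 samples, as CPM (counts scaled to a common library size) on linear axes from 0, with young samples in blue, aged samples in red, the set letter as the symbol, and the mean and SD (n = 3) as bars. Mdm2, Cdkn2b and Cdkn2d were the genes whose ages did not overlap, with Mdm2 and Cdkn2b above and Cdkn2d below in the aged samples.

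Levels between genes were compared per kilobase of exonic length, as CPM per kilobase. Cdkn1a stood far above the other members, at 364 ± 85.1 CPM per kilobase in young and 564 ± 137 CPM per kilobase in aged samples (SD, n = 3 each), and ranked 88 of 15168 genes by mean CPM. Mdm2 came next at 66.4 ± 19.5 and 117 ± 25 CPM per kilobase, followed by Lmnb1 at 36.3 ± 14.7 and 73.0 ± 24.5, and these neighbours overlapped in both ages. Cdkn2d, Ccng1 and Trp53 formed a middle group, with means between 12.2 and 23.7 CPM per kilobase in young samples and between 12.7 and 16.8 in aged samples. Cdkn2c and Cdkn1b were lower, at 2.41 ± 0.484 and 0.956 ± 0.178 CPM per kilobase in young samples, and overlapped each other in aged samples. Cdkn2b was the lowest, at 0.162 ± 0.0792 CPM per kilobase in young and 0.462 ± 0.170 CPM per kilobase in aged samples.

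Cdkn1a (chromosome 17, 29090976 to 29100728, plus strand, mm10), the gene of p21 and the main effector of p53 arrest, was abundant in every sample. It was measured at 1639, 1090.3 and 1146 CPM in young A, B and C and at 2394, 1459.6 and 2159 CPM in aged A, B and C. Aged A and aged C were the highest, whereas aged B lay below young A, so the ages overlapped. The means were 1292 ± 302 and 2004 ± 486 CPM (SD, n = 3), a log2 fold change of 0.63 (standard error, SE, 0.24, with a 95% interval of 0.10 to 1.16). This did not pass in edgeR after Benjamini-Hochberg adjustment, with an adjusted p = 0.0890. The same difference passed with DESeq2 (adjusted p = 0.0375), and in edgeR without young A (adjusted p = 0.0350) or without aged B (adjusted p = 0.0386). Cdkn1a shares 1047 bases with the antisense gene 1700023B13Rik, whose means of 11.3 and 7.42 counts per sample in young and aged were small beside the 21878 and 30712 counts of Cdkn1a.

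Cdkn1b (chromosome 6, 134920401 to 134925514, plus strand), the gene of p27, was scarce. Young A, B and C held 3.76, 5.27 and 4.03 CPM, and aged A, B and C held 8.54, 2.86 and 5.06 CPM. Both the highest and the lowest value were in aged samples. Its log2 fold change was 0.33 (SE 0.38, 95% interval -0.51 to 1.17, adjusted p = 0.569), and without aged A it was -0.13. Cdkn1c, the gene of the related inhibitor p57, had group means of 1.17 CPM (young) and 1.59 CPM (aged) (adjusted p = 0.619). In a list of 6 tested genes related to the inhibitors by name or partner (Cdkn1c, Cdkn3, Cdkn2aip, Cdkn2aipnl, Cables1 and Cables2), most of which encode no CDK inhibitor, 0 passed in either direction in edgeR, beside 9.73% and 7.97% of all genes. Without adjustment, 0 had a p-value under 0.05, beside 2144 higher and 1957 lower of all 11878 genes. DESeq2 also called 0, and with samples left out in turn 1 was lower without aged B and 0 passed in the other fits.

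Of the INK4 genes, Cdkn2b (chromosome 4, 89306299 to 89311040, minus strand), which encodes p15, was near the limit of detection. Its counts were 2, 4 and 5 in young A, B and C and 6, 14 and 10 in aged A, B and C, a total of 11 against 30. Every aged sample was above every young one, at 0.420 to 0.890 CPM against 0.111 to 0.330 CPM. The 3 counts taken as the floor equal 0.166 to 0.210 CPM, and young A was below it. Without the filter the log2 fold change was 1.5 (SE 0.79, adjusted p = 0.234), and DESeq2 gave 1.54 (SE 0.97, adjusted p = 0.266), so neither fit called a difference.

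Cdkn2d (chromosome 9, 21288410 to 21291408, minus strand), the gene of p19 of the INK4 family, was the INK4 transcript with the highest level. It was at 30.8, 38.4 and 42.8 CPM in young A, B and C and at 28.8, 21.6 and 28.8 CPM in aged A, B and C. The aged samples were all below the young ones, with young A closest to them. The means were 37.3 ± 6.07 and 26.4 ± 4.12 CPM (SD, n = 3). The log2 fold change of -0.50 (SE 0.19, 95% interval -0.92 to -0.08) did not pass in edgeR (adjusted p = 0.0926) except without young A (adjusted p = 0.0449).

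Cdkn2c (chromosome 4, 109660876 to 109667190, minus strand), the gene of p18, was at 6.13, 5.39 and 7.92 CPM in young A, B and C and at 5.46, 4.58 and 4.51 CPM in aged A, B and C. Young C was the highest, and aged A lay just above young B. Its log2 fold change was -0.42 (SE 0.26, 95% interval -0.98 to 0.15, adjusted p = 0.273). With a sample left out in turn it ran from -0.53 to -0.25 without passing.

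Trp53 (chromosome 11, 69580359 to 69591874, plus strand), the gene of p53 itself, was at nearly the same level in both ages. Young A, B and C were at 51.8, 46.8 and 49.7 CPM, and aged A, B and C at 45.2, 59.5 and 49.4 CPM. The young samples lay within the range of the aged ones. Its log2 fold change was 0.06 (SE 0.16, 95% interval -0.31 to 0.42, adjusted p = 0.839), and without aged B it was -0.05. Transcript level does not report p53 activity, which is set mainly by the stability of the protein.

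Mdm2 (chromosome 10, 117688875 to 117710759, minus strand), the ligase that marks p53 for degradation, was at 348, 233 and 430.4 CPM in young A, B and C. In aged A, B and C it was at 484, 566 and 733 CPM. Every aged sample was above every young one, with young C and aged A the closest. The means were 337 ± 99.0 and 594 ± 127 CPM (SD, n = 3), and the log2 fold change was 0.82 (SE 0.24, 95% interval 0.27 to 1.36, adjusted p = 0.0444). When samples were left out in turn, the call was kept only without aged A (adjusted p = 0.0440), and the adjusted p-value reached 0.164 in the other fits. It was also lost without the filter on low counts (adjusted p = 0.0522). The ratio of Mdm2 to Trp53 CPM, which does not depend on the scaling of the libraries, was 6.72, 4.99 and 8.66 in young A, B and C and 10.7, 9.51 and 14.8 in aged A, B and C. The aged ratios were all above the young ones, a comparison chosen after its values were seen. Mdm4, the partner of Mdm2 in holding p53 down, was at 8.64 and 9.05 CPM by group means (log2 fold change 0.07, SE 0.27, adjusted p = 0.880).

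Ccng1 (chromosome 11, 40748552 to 40755312, minus strand), the gene of cyclin G1 and a direct target of p53, did not pass the test. It was at 45.4, 57.6 and 52.1 CPM in young A, B and C and at 39.2, 55 and 45.8 CPM in aged A, B and C. The ages overlapped, with aged A the lowest. Its log2 fold change was -0.15 (SE 0.18, 95% interval -0.54 to 0.25, adjusted p = 0.593). With a sample left out in turn it ran from -0.27 to -0.03 without passing. The ratio of Cdkn1a to Ccng1 CPM was 36.1, 18.9 and 22.0 in young A, B and C and 61.1, 26.6 and 47.2 in aged A, B and C, so that aged B lay below young A, as it did for Cdkn1a.

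**Figure D2:**
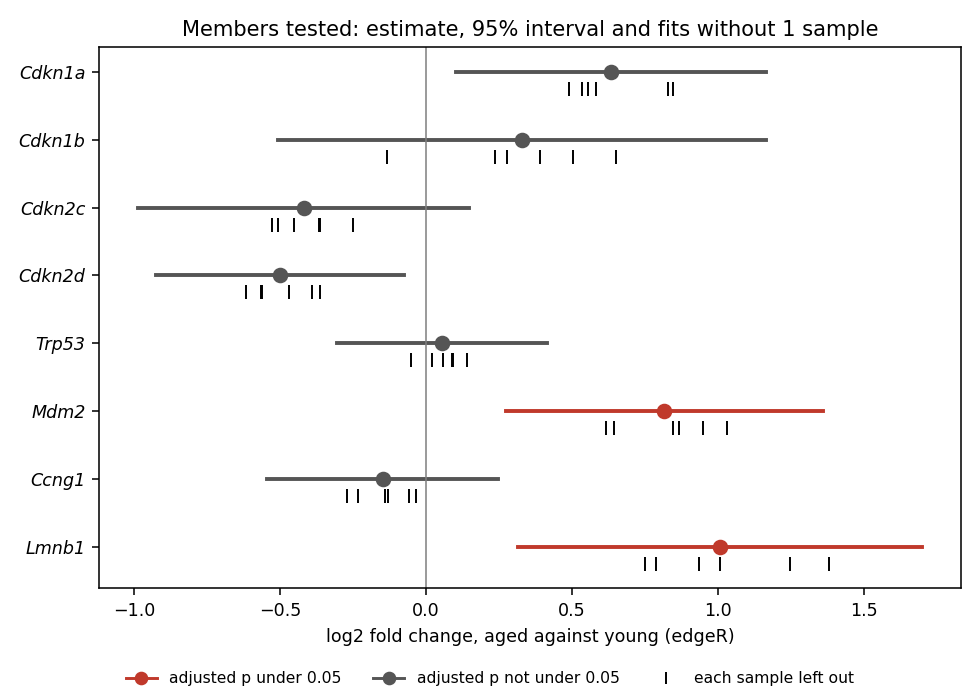
Log2 fold change of aged against young samples for the 8 tested genes in edgeR, with the 95% interval as a line and the fits that each left out 1 sample as small ticks. Mdm2 and Lmnb1, in red, are the 2 genes that passed, and the ticks of Cdkn1b and Trp53 fall on both sides of 0.

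The promoter windows of 3 p53 targets among the members are shown because these genes share a regulator in textbook accounts. Only Mdm2 passed the test here, and the changes of the 3 genes were not tested against each other. Each window runs from 250 bases before to 50 bases after a RefSeq start site on GRCm38.p6, written 5′ to 3′ on the strand of the gene. Capitals mark matches to the p53 half-site, the 10-base consensus bound by a p53 dimer. They are Cdkn1a at chr17:29090729-29091028 (plus strand), Mdm2 at chr10:117710709-117711008 (minus strand) and Ccng1 at chr11:40755237-40755536 (minus strand).
Cdkn1a: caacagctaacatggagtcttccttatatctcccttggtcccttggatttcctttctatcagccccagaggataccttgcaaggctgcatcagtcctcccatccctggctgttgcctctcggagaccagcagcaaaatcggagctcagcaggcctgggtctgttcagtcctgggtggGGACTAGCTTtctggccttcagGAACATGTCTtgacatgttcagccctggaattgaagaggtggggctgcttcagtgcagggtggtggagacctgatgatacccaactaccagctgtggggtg
Mdm2: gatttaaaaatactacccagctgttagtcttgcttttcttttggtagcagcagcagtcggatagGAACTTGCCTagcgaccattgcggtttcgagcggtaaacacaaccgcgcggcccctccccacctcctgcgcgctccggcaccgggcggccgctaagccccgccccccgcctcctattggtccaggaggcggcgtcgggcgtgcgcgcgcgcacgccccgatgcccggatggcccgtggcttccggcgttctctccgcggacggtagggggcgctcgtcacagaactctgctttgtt
Ccng1: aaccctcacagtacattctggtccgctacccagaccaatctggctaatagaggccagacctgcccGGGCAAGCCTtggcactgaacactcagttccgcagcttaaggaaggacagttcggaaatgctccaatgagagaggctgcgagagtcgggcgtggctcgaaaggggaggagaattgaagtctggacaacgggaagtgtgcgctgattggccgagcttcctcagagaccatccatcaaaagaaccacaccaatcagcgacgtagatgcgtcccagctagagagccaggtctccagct
The matches begin at -73 and -51 in Cdkn1a, at -186 in Mdm2 and at -185 in Ccng1, relative to the start site of the printed window. Sequence outside the windows was not searched. A half-site was also found in the windows of Trp53 (-75) and Cdkn2d (-102), and none in those of Cdkn1b, Cdkn2b and Cdkn2c or in a second window of Cdkn1a at a downstream start site (chr17:29093519-29093818, plus strand). Of all 32851 windows of this length, 8.36% hold a half-site. Both a gene that rose (Mdm2) and genes that did not pass (Ccng1, Trp53) hold one, and a match describes letters, not binding. All motifs were searched on both strands. TTTCCCGC and TTTGGCGC, which E2F factors bind, and TGANTCA, which AP-1 binds, were found in none of the 10 windows of 8 members, whereas they occur in 1.07%, 0.514% and 7.81% of all windows. TTTGAA, an element of cell cycle genes held by 17.9% of all windows, was found once, in Cdkn2b (-161, on the strand opposite to the gene), and no match overlapped another.

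Lmnb1 (chromosome 18, 56707813 to 56753425, plus strand), the gene of lamin B1, was higher in aged samples, whereas senescent cells are known for less of it. It was at 156, 70.5 and 96.4 CPM in young A, B and C and at 288, 143 and 218 CPM in aged A, B and C. Aged A and aged C were above every young sample, and aged B lay below young A. The means were 107 ± 43.6 and 216 ± 72.6 CPM (SD, n = 3), with a log2 fold change of 1.01 (SE 0.31, 95% interval 0.32 to 1.70, adjusted p = 0.0488). The call was kept without young A (adjusted p = 0.0105) and without aged B (adjusted p = 0.0246). It was lost without each of the other 4 samples, where the adjusted p-value reached 0.174, and without the filter on low counts (adjusted p = 0.0570).

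Lmna, the gene of lamins A and C, was at 1255, 770.3 and 1219.9 CPM in young A, B and C and at 1614, 1396 and 1608 CPM in aged A, B and C. Every aged sample was above every young one, but the log2 fold change of 0.51 (SE 0.21) did not pass the edgeR test (adjusted p = 0.121). Lmnb2, the gene of lamin B2, was scarce, at 3.91 and 3.56 CPM by group means, with a log2 fold change of -0.13 (adjusted p = 0.795). Of 26 lamina and nuclear envelope genes tested, 3 rose and 1 fell in edgeR, shares of 11.5% and 3.85% that are near the 9.73% and 7.97% of all genes, and their median log2 fold change was -0.01. The risers were Lbr, the lamin B receptor (33.2 to 58.9 CPM, log2 fold change 0.83, adjusted p = 0.0267), Emd, the gene of emerin (63.5 to 97.6 CPM, log2 fold change 0.62, adjusted p = 0.0308), and Syne1, a nesprin of low level (0.671 to 1.88 CPM, log2 fold change 1.47, adjusted p = 0.0411). Tmpo, the gene of the LAP2 proteins, fell from 36.4 to 21.7 CPM (log2 fold change -0.74, adjusted p = 0.0317). For these genes, leaving out young A, B and C and aged A, B and C in turn gave 5, 0, 0, 0, 2 and 0 that rose and 1, 1, 0, 0, 0 and 1 that fell.

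Of 45 p53 target genes tested, excluding the members, 6 rose and 3 fell in edgeR, or 13.3% and 6.67%, near the 9.73% and 7.97% of all genes, and their median log2 fold change was -0.18. Gadd45a, a stress gene of growth arrest, was at 44.5, 72.8 and 58.1 CPM in young A, B and C and at 169, 118 and 190 CPM in aged A, B and C, with no overlap (log2 fold change 1.44, SE 0.23, adjusted p = 0.00627). Ppm1d, the gene of the WIP1 phosphatase that switches p53 signalling off, rose from 11.8 to 21.8 CPM (log2 fold change 0.88, SE 0.20, adjusted p = 0.0200). Sesn2, a stress-induced sestrin, rose from 16.7 to 27.8 CPM (log2 fold change 0.74, SE 0.19, adjusted p = 0.0269). The remaining risers, named after their values were seen, were the death receptor gene Fas, the nucleotide enzyme gene Rrm2b and Sfn, the gene of 14-3-3 sigma, which keratinocytes also express and which was highest in aged B at 16.0 CPM.

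The p53 targets that fell were Sesn1, Steap3 and Mgmt. Sesn1, a sestrin that p53 induces, was at 8.07, 26.5 and 9.11 CPM in young A, B and C and at 2.52, 4.52 and 5.49 CPM in aged A, B and C (log2 fold change -1.80, adjusted p = 0.0281). Young B stood above the other young samples, and the ages did not overlap. Steap3, a ferrireductase, fell from 8.13 to 3.40 CPM (log2 fold change -1.25, adjusted p = 0.0160). Mgmt, a DNA repair enzyme, fell from 2.33 to 0.609 CPM (log2 fold change -1.92, adjusted p = 0.0141). By role, 4 of 17 arrest and stress targets rose and 1 fell (23.5% and 5.88%), 1 of 8 DNA repair and nucleotide targets rose and 1 fell (12.5% each), and 1 of 20 apoptosis targets rose and 1 fell (5% each), beside 9.73% and 7.97% of all genes. The roles were not tested against each other. Over all 45 targets, leaving out young A, B and C and aged A, B and C in turn gave 5, 1, 1, 2, 4 and 3 that rose and 8, 2, 0, 2, 3 and 0 that fell. Aged B was the sample with the highest keratinocyte transcripts. DESeq2 called 6 higher and 6 lower.

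**Figure D3:**
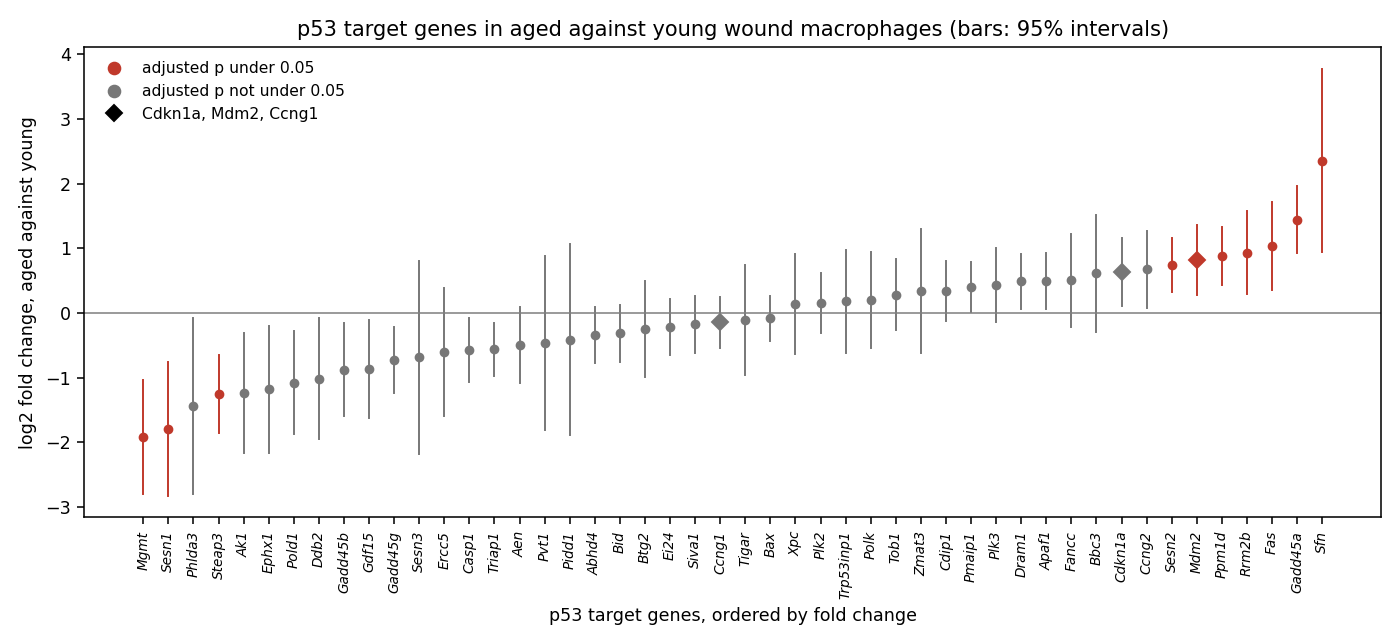
Log2 fold change of aged against young samples for each of the 45 tested p53 target genes and the members Cdkn1a, Mdm2 and Ccng1 (diamonds), ordered by size, with 95% intervals as bars and genes past the edgeR test in red. Gadd45a, Ppm1d and Sesn2 are among the 6 targets that rose and Sesn1, Steap3 and Mgmt are the 3 that fell.

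Among regulators of p53, 8 of 43 tested rose and 3 fell in edgeR, or 18.6% and 6.98% beside 9.73% and 7.97% of all genes (median log2 fold change -0.16). Rffl, a ubiquitin ligase of p53, was at 19.5, 20 and 14.7 CPM in young A, B and C and at 69.4, 41.7 and 65.6 CPM in aged A, B and C (log2 fold change 1.70, adjusted p = 0.00288). The aged samples were all above the young ones. Pja2, another ubiquitin ligase, rose from 21.5 to 37.6 CPM (log2 fold change 0.81, adjusted p = 0.0142), and Ppp1r13b, the gene of the p53 cofactor ASPP1, rose from 5.69 to 12.5 CPM (log2 fold change 1.13, adjusted p = 0.0166). Smyd2, a methyltransferase of p53, fell from 8.32 to 2.79 CPM (log2 fold change -1.57, adjusted p = 0.0122), and Daxx, a partner of Mdm2, fell from 40.4 to 27.8 CPM (log2 fold change -0.54, adjusted p = 0.0410). The third to fall was Rpl11, a ribosomal protein that binds Mdm2, at 5.02 and 2.49 CPM (adjusted p = 0.0383), but its reads may be split among near-identical pseudogenes and its value is uncertain. None of the 11 damage kinases and mediators passed in edgeR. At an unadjusted p-value under 0.05, 0 were higher and 1 was lower, beside 2144 and 1957 of all 11878 genes. Of the 11, Chek2 was at 4.6 and 2.15 CPM (adjusted p = 0.0890), Atr at 1.56 and 1.23 CPM (adjusted p = 0.621) and Atm at 0.801 and 0.442 CPM (adjusted p = 0.509). Chek1 was below the filter, at 1.31 and 0.398 CPM. Among the regulators, leaving out young A, B and C and aged A, B and C in turn gave 9, 3, 1, 7, 5 and 2 that rose and 2, 1, 0, 1, 2 and 0 that fell.

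Cdk2, Cdk4 and Cdk6, kinases that the inhibitors act on, did not pass. Group means of young and aged samples were 119 and 107 CPM for Cdk4 (log2 fold change -0.15, adjusted p = 0.510), 24.0 and 26.7 CPM for Cdk6 (log2 fold change 0.15, adjusted p = 0.566) and 18.4 and 17.8 CPM for Cdk2 (log2 fold change -0.05, adjusted p = 0.885). Ccnd1, a D-type cyclin, was at 9.31 and 5.37 CPM (adjusted p = 0.191), and Skp2, which targets p27 for degradation, at 5.73 and 3.66 CPM (adjusted p = 0.340). In all, 0 of 14 cyclins, CDKs and partners rose and 3 fell (0% and 21.4%, beside 9.73% and 7.97% of all genes). These were Cdk1, the mitotic kinase (11.9 to 4.11 CPM, log2 fold change -1.52, adjusted p = 0.0149), Ccna2, its cyclin A partner (5.45 to 1.98 CPM, log2 fold change -1.45, adjusted p = 0.0366), and Mnat1, a subunit of the CDK-activating kinase (9.41 to 4.14 CPM, log2 fold change -1.18, adjusted p = 0.0187). Among 12 genes that turn over p21 and p27, 0 passed in edgeR in either direction (0%, beside the same shares of all genes). At an unadjusted p-value under 0.05, 2 were higher and 3 lower, beside 2144 and 1957 of all 11878 genes.

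Of 28 tested genes known to regulate the CDK inhibitor genes, 7 rose and 0 fell in edgeR (25% and 0%, beside 9.73% and 7.97% of all genes), a difference from other genes that was not tested. Ets2, a factor that can activate the INK4 genes, was at 174, 216 and 173 CPM in young A, B and C and at 373, 278 and 409 CPM in aged A, B and C (log2 fold change 0.91, adjusted p = 0.0151). Id1, which opposes Ets factors at that locus, rose from 5.29 to 14.2 CPM (log2 fold change 1.42, adjusted p = 0.0122), and Kdm6b, a demethylase of histone H3 lysine 27, rose from 10.3 to 20.6 CPM (log2 fold change 1.0, adjusted p = 0.0158). The ages did not overlap for any of the 3, with aged samples higher, and of the INK4 genes on which they are known to act, Cdkn2a was not analysed here and Cdkn2b, below the filter, was past the threshold neither in edgeR without the filter nor in DESeq2. Together with the partners and turnover genes, 7 of 54 rose and 3 fell, whereas DESeq2 called 11 higher and 3 lower. Leaving out young A, B and C and aged A, B and C in turn gave 12, 2, 0, 3, 8 and 0 that rose and 4, 2, 0, 2, 4 and 2 that fell.

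Of 54 genes of the secretory phenotype (SASP) tested, 22 rose and 3 fell in edgeR (40.7% and 5.56%, beside 9.73% and 7.97% of all genes), and their median log2 fold change was 0.92. Cxcl3, a neutrophil chemokine, was at 1923, 1751 and 1878 CPM in young A, B and C and at 11744, 6573 and 9852 CPM in aged A, B and C (log2 fold change 2.34, adjusted p = 0.00127). Ccl3, another chemokine, rose from 300.5 to 1331 CPM (log2 fold change 2.15, adjusted p = 0.00127) and Mmp13, a collagenase, from 34.3 to 226 CPM (log2 fold change 2.73, adjusted p = 0.00127). Cxcl16 (420.4 to 236 CPM), Timp2 (298 to 163 CPM) and Spp1 (11829 to 6527 CPM) fell, with log2 fold changes of -0.83, -0.87 and -0.86 (adjusted p = 0.0152, 0.0327 and 0.0475). In the same samples, 4 of 15 tested neutrophil markers rose and 0 fell (26.7% and 0%), and their part in these values was not tested. Activated macrophages make many of these factors too, so the list does not separate activation from senescence. In this list, leaving out young A, B and C and aged A, B and C in turn gave 24, 17, 11, 22, 20 and 18 that rose and 4, 0, 0, 1, 4 and 0 that fell.

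Among 11 lysosomal, survival and surface genes of senescent cells, 3 rose and 1 fell in edgeR, or 27.3% and 9.09% beside 9.73% and 7.97% of all genes. Plaur, the urokinase receptor, rose from 1168 to 3002 CPM (log2 fold change 1.36, adjusted p = 0.0117) and is also counted among the SASP genes that rose. Bcl2l1, a survival factor, rose from 56.1 to 94.8 CPM (log2 fold change 0.76, adjusted p = 0.0238) and Vim, the gene of vimentin, from 2133 to 3511 CPM (log2 fold change 0.72, adjusted p = 0.0470). Gpnmb, a lysosomal glycoprotein, fell from 299.9 to 106 CPM (log2 fold change -1.5, adjusted p = 0.00846). Here, leaving out young A, B and C and aged A, B and C in turn gave 2, 1, 0, 2, 3 and 1 that rose and 1, 1, 0, 1, 1 and 1 that fell.

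Proliferation genes were mostly lower in aged samples. Of 33 tested, 19 fell and 1 rose in edgeR (57.6% and 3.03%, beside 7.97% and 9.73% of all genes), and their median log2 fold change was -1.27. Mcm2, a subunit of the replicative helicase, fell from 15.7 to 4.31 CPM (log2 fold change -1.86, adjusted p = 0.00188), Gins2, another helicase subunit, from 17.3 to 6.71 CPM (log2 fold change -1.36, adjusted p = 0.00450), and Tk1, thymidine kinase, from 11.4 to 2.67 CPM (log2 fold change -2.08, adjusted p = 0.00738). The gene that rose was Mki67, which encodes the Ki-67 antigen, at 1.93, 1.70 and 1.65 CPM in young A, B and C and at 3.50, 5.02 and 3.09 CPM in aged A, B and C (log2 fold change 1.13, adjusted p = 0.0412). It was no longer called in any fit with a sample left out, nor with the set letter as a replicate block. The number that fell was 2 without young C, 5 without aged C, and 11 to 18 without each of the others. In RNA of a sorted bulk, fewer cells with a transcript and less of it per cell cannot be told apart.

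**Figure D4:**
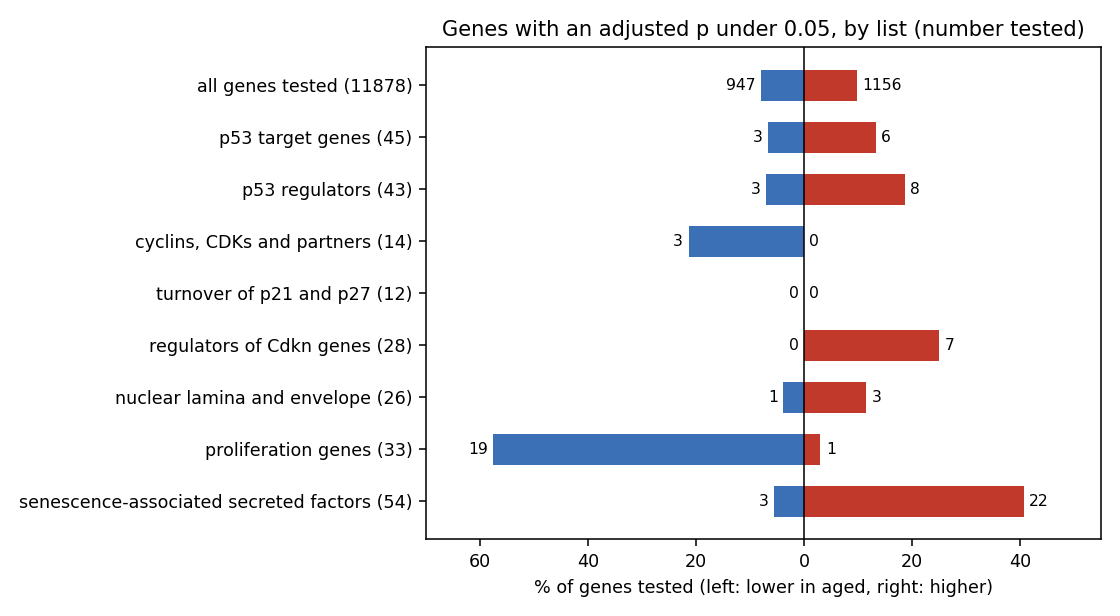
Share of the tested genes of each list that rose or fell in the edgeR test, as percent (red to the right for higher, blue to the left for lower in aged samples, numbers of genes at the bars), beside the same share over all genes tested. The SASP list has the most risers (22 of 54) and the proliferation list the most that fell (19 of 33).

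Genes with the most alike profiles were found for the 2 members that passed, by the root mean square difference of log2 CPM about each gene's own mean over the 6 samples, among 6584 genes of at least 10 CPM. For Mdm2, whose own values spread by 0.52 on that scale, they were Apbb3 (0.13), Ncoa3 (0.14) and Rab20 (0.15). For Lmnb1, with a spread of 0.68, they were Osgin2 (0.09), Hk2 (0.10) and Usp6nl (0.14).

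The libraries held 15270103 to 17927483 expected counts each, so 1 count equals 0.0553 to 0.0700 CPM. Macrophage markers, the labelled cell type, summed to 36840 to 52252 CPM in young and 35918 to 44447 CPM in aged samples. Of the 10, 3 rose and 1 fell in edgeR (30% and 10%, beside 9.73% and 7.97% of all genes). Lyz2, the highest, was at 24133 to 38810 CPM in young and 16218 to 21372 CPM in aged samples without passing (adjusted p = 0.0753). Transcripts of other cells were present too. The 16 neutrophil markers with a row summed to 777, 1173 and 1008 CPM in young A, B and C and to 1789.7, 895 and 1652 CPM in aged A, B and C, with Elane at 0 counts in 4 samples. Of the 15 tested, 4 rose and 0 fell in edgeR (26.7% and 0%, beside 9.73% and 7.97% of all genes), namely Cd177 (log2 fold change 1.62, adjusted p = 0.0116), Cxcr2 (1.13, adjusted p = 0.0340), Lcn2 (0.99, adjusted p = 0.0418) and Retnlg (0.85, adjusted p = 0.0393), chosen after their values were seen. Ly6g was at 6.13, 10.9 and 7.39 CPM in young A, B and C and at 9.59, 6.17 and 9.50 CPM in aged A, B and C. S100a9, the highest of the list, was at 184, 320 and 287 CPM in young and 339, 158 and 411 CPM in aged samples. The ages overlapped for both, and for S100a8. Aged A and aged C were highest in the sum of the neutrophil markers, as they were for Cdkn1a and Lmnb1, and the part of neutrophil RNA in those values was not tested. The 12 keratinocyte markers summed to 3.70 to 5.42 CPM in young samples and 10.6 to 209 CPM in aged samples, without overlap. The keratins Krt14 and Krt5 made up little of the sum in aged A (0.770 and 0 CPM) and aged C (0.864 and 0 CPM). Krt5 was at 6.87 CPM in aged B and at 0.0553 to 0.234 CPM in young samples. Sfn was at 7.70, 16.0 and 2.04 CPM in aged A, B and C, against 0.996 to 2.65 CPM in young samples. In edgeR, 3 of 3 tested (Krt14, Sfn and Cdh1) rose (100%, beside 9.73% of all genes). Cdh1 was at 1.68 ± 0.154 and 8.99 ± 2.03 CPM (SD, n = 3). The highest sum was aged B, in which Krt14 was at 80.1 CPM against 0 to 0.864 CPM elsewhere, and in which fibroblast markers reached 191 CPM against 21.5 to 63.1 CPM elsewhere. Endothelial markers summed to 12.5 to 13.5 CPM in young and 27.4 to 34.2 CPM in aged samples, with 1 of 4 tested higher (25%, beside 9.73% of all genes). B cell markers summed to 60.6 to 158 CPM and 23.7 to 40.5 CPM, with both tested genes, Ighm and Cd79b, lower (100%, beside 7.97% of all genes). The ages did not overlap in either sum, and the part of these cells in the members' values was not tested. Sums of T and NK cell markers (12.5 to 16.7 CPM in young, 10.4 to 21.4 CPM in aged) and dendritic cell markers (18.5 to 57.6 CPM in young, 33.3 to 95.8 CPM in aged) overlapped. Aged B also had the lowest Cdkn1a and Lmnb1 of the aged samples, and the part of keratinocyte and fibroblast RNA in that was not tested. Without aged B the log2 fold changes were 0.83 for Cdkn1a and 1.25 for Lmnb1, both past the threshold, and 0.87 for Mdm2, which was not.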

How the data were processed

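Bulk RNA was sequenced from wound macrophages in 3 samples of young and 3 of aged mice. The authors aligned reads with STAR 2.7.3a to mm10 and used Partek for quantification on Ensembl transcripts, and they deposited expected counts per gene without normalisation. Genes with a total under 10 are not in that table, and whether counting used strand is not given in the sources used here. A second deposited table of DESeq2-normalised values and the authors' own comparison was not used.

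Expected counts were rounded to whole numbers, where the planned design had named raw counts. Aged and young samples were compared in R 4.3.3 with edgeR 4.0.16 (TMM scaling, filterByExpr by age, quasi-likelihood test, Benjamini-Hochberg adjustment over 11878 genes, threshold 0.05). No block was used. CPM were computed on TMM-scaled totals, with a prior count of 2 for log2 values. Exact permutation of 3 against 3 samples cannot give a two-sided p below 0.1, so single genes were read from the edgeR test. Totals of 15270103 to 17927483 counts limit precision, and intervals cover the spread between samples. DESeq2 1.42.0, limma-voom (limma 3.58.1), DESeq2 size factors, other filters, a block on the set letter and the omission of single samples were alternatives. Scripts were tested on simulated data. Figures were drawn with matplotlib 3.10.9 from pandas 2.3.3 under Python 3.11.15.

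The members and the lists, written from general knowledge, were chosen with earlier results of these data known. Named genes were all members, the 3 genes with the lowest p-value per list and direction among those that passed, a set of p53, CDK and lamin genes whatever their result, the top gene of a marker list, and the 3 genes most alike each member that passed. Promoter windows came from RefSeq on GRCm38.p6 and 8 members were matched. Exonic lengths were taken from GENCODE M21. No pair of samples of an age matched within sampling noise, so none was treated as a duplicate, which does not show that the samples are independent.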

Additional observations from a re-analysis of the deposited data

How the results depend on the processing

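Of the 8 members tested, 2 were called higher, and the same 2 genes were kept with DESeq2, DESeq2 size factors, limma-voom, at least 10 counts in every sample and the set letter as a replicate block. DESeq2 and the replicate block called 3, Cdkn1a being added (adjusted p = 0.0434 under the block). Without a filter on low counts 0 members were called higher, and 1 was called higher when over 2-fold was also required. With each sample left out, 0 to 2 members were higher and 0 to 1 lower. Over all genes, 1156 rose and 947 fell, against 545 and 499 with the 2-fold rule, 1202 and 912 with the replicate block (5 and 5 of the p53 targets), and 151 to 1574 and 67 to 1128 with a sample left out. The lowest counts came without young C, and the cause was not tested. The log2 fold change of Cdkn1b ran from -0.13 to 0.65 and that of Trp53 from -0.051 to 0.14 with a sample left out, so neither direction is settled. Whether the set letters pair the samples is not settled by their values. Same-letter deviations correlated at 0.18, -0.02 and 0.11 for A, B and C, against -0.22 to 0.14 for unlike letters. With the block, the SE was 0.16 for Lmnb1 (0.31 without it), 0.18 for Cdkn1a (0.24) and 0.20 for Mdm2 (0.24). The SEs of Cdkn1b, Cdkn2c and Trp53 were slightly higher with the block. DESeq2 factors in place of TMM moved the median of all genes by 0.01 on the log2 scale. Cdkn2b was at 2 to 14 counts a sample, and each age had 3 samples. How far depth or group size limits each member was not tested.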
